A study of Rattus norvegicus with 6 samples.

Results

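The receptor genes described here are 6 Toll-like receptors (Tlr2, Tlr3, Tlr4, Tlr5, Tlr6 and Tlr7), the proteins that bring lipopolysaccharide (LPS) to them (Cd14, Ly96 and Lbp) and the adaptor Myd88. They were chosen by gene symbol and not by a rule on their measured values, but earlier results of these data were known. They make up 10 of the 15154 genes that could be named on the array. Their 12 probes, of 30367 in all, gave every gene at least 1 probe. The arrays measured ovaries collected on postnatal day (PND) 7 from female Wistar rat pups. The LPS group had received 0.05 mg/kg LPS of Salmonella Enteritidis intraperitoneally on PNDs 3 and 5, and the control group had received saline in equal volume on the same days. Each group was hybridized to 3 single-colour Agilent arrays, which makes 6 in all. Whole litters had been given to 1 treatment, so litter and treatment cannot be told apart. The ovaries of each group came from a few pups and from fewer litters than there were arrays. The arrays of a group are therefore not independent replicates of the treatment. Which pups and litters formed an array is not given in the sources used here. For these reasons the p-values measure only the spread between these arrays. The comparison asked whether the genes through which LPS is sensed differed in the neonatal ovary 2 days after the last injection.

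Toll-like receptors are membrane proteins that recognise microbial molecules and start inflammatory signaling. LPS is carried by LPS-binding protein (Lbp) to Cd14, which passes it to the complex of Tlr4 and Ly96 (MD-2) at the cell surface. All Toll-like receptors of this group except Tlr3 signal through Myd88, and Tlr4 also uses a second adaptor, Ticam1. In the ovary the receptors are known from macrophages and endothelium and have also been described in granulosa cells.

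A RefSeq promoter sequence of the GRCr8 assembly was matched for 8 of the 10 genes. It was missing for Ly96 and Lbp. The 250 bases before the annotated start of Tlr4, the LPS receptor itself, and of Tlr2 and Myd88, which had the lowest unadjusted p-values of the 10 genes, are shown 5′ to 3′ on the strand of the gene because they are the regulatory sequence nearest to the transcripts compared here. The windows are chr5:85160997-85161246 on the plus strand for Tlr4, chr2:171504558-171504807 on the minus strand for Tlr2 and chr8:127956231-127956480 on the minus strand for Myd88. The capitals mark a match to 1 motif in each, namely the PU.1 core in Tlr4, the κB motif in Tlr2 and the interferon-stimulated response element (ISRE) in Myd88.
Tlr4: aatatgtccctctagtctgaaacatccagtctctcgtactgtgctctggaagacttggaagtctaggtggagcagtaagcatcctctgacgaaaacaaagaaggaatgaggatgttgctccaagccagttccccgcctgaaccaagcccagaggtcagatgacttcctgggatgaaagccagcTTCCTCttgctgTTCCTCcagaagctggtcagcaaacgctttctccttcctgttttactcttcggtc
Tlr2: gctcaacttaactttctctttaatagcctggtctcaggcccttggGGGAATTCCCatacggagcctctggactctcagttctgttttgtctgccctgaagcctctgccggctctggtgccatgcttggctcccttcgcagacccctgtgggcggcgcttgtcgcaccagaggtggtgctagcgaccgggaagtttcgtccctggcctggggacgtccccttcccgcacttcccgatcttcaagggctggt
Myd88: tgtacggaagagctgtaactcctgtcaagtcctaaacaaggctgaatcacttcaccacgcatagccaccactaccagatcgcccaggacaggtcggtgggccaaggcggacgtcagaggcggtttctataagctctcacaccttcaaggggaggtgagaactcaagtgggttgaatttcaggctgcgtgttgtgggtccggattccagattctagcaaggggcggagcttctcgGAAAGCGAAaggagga
The letters searched on both strands were GGGANTTNC for κB, the site of NF-κB, GAAANNGAA for ISRE, the site of interferon regulatory factors, GAGGAA for the core of PU.1, a myeloid transcription factor, and TATAAA for the TATA box. The motifs were set after the windows had been read. The κB letters were found on both strands of Tlr2, in overlapping matches that began 205 and 204 bases before its start, and in none of the other 7 windows, and 3.59% of 27457 promoters held them. The ISRE letters began 16 bases before the start of Myd88 and were in none of the other 7, against 7.99% of all promoters. The PU.1 core was in 5 of the 8 windows (Tlr3, Tlr4, Tlr6, Tlr7 and Cd14), against 23.2% of all promoters, and began 67 and 55 bases before the start of Tlr4. No matches of different motifs overlapped, and the TATA letters were in 0 of the 8 windows and in 13.1% of all. A match of letters is a description of the window and not evidence of a bound factor.

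None of the 10 genes met the study's criterion of a 2-fold difference with a p under 0.05, which was applied here to the unadjusted p of limma and which 1.69% of all probes met. At an adjusted p under 0.05 the count was 0 of 10, and 0.0% of all probes passed, although 5018 of the 30367 probes had an unadjusted p under 0.05. Among the 10 genes 1, Myd88, had an unadjusted p under 0.05, and it was lower after LPS. Of all probes 14.1% were lower and 2.46% were higher at that p, and 2.39% were lower among the 17585 probes that stood well above background on each of the 6 arrays. The 2 groups overlapped for each of the 10 genes, whereas the share of probes whose groups stood apart was 23.4% among those measured on every array and 11.4% among those well above background on all 6. On average 6 of the 10 genes were higher after LPS and 4 were lower, with a median log2 difference of 0.13. Over all probes 44.8% were higher, with a median of -0.04. With Tlr4 and Tlr5 at their bounds and Tlr7 left out, the median over the remaining 9 genes was 0.02.

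Values are log2 processed signals after subtraction of the 75th percentile of the same array, so that 0 is the 75th percentile and each unit is a 2-fold step. A probe was taken as well above background on an array when the scanner software called every unflagged spot of it so. The probes of 7 genes (Tlr2, Tlr3, Tlr6, Cd14, Ly96, Lbp and Myd88) were well above background on all 6 arrays. Those of Tlr4 and Tlr5 were so on 2 of 3 LPS arrays and on 0 of 3 saline arrays, and that of Tlr7 on 0 of 6. For the 7 of these probes that had 2 spots, the spots of 1 array differed by a median log2 of 0.08. The signal of the different probes is not comparable, since each probe binds its target with its own strength.

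**Figure D1:**
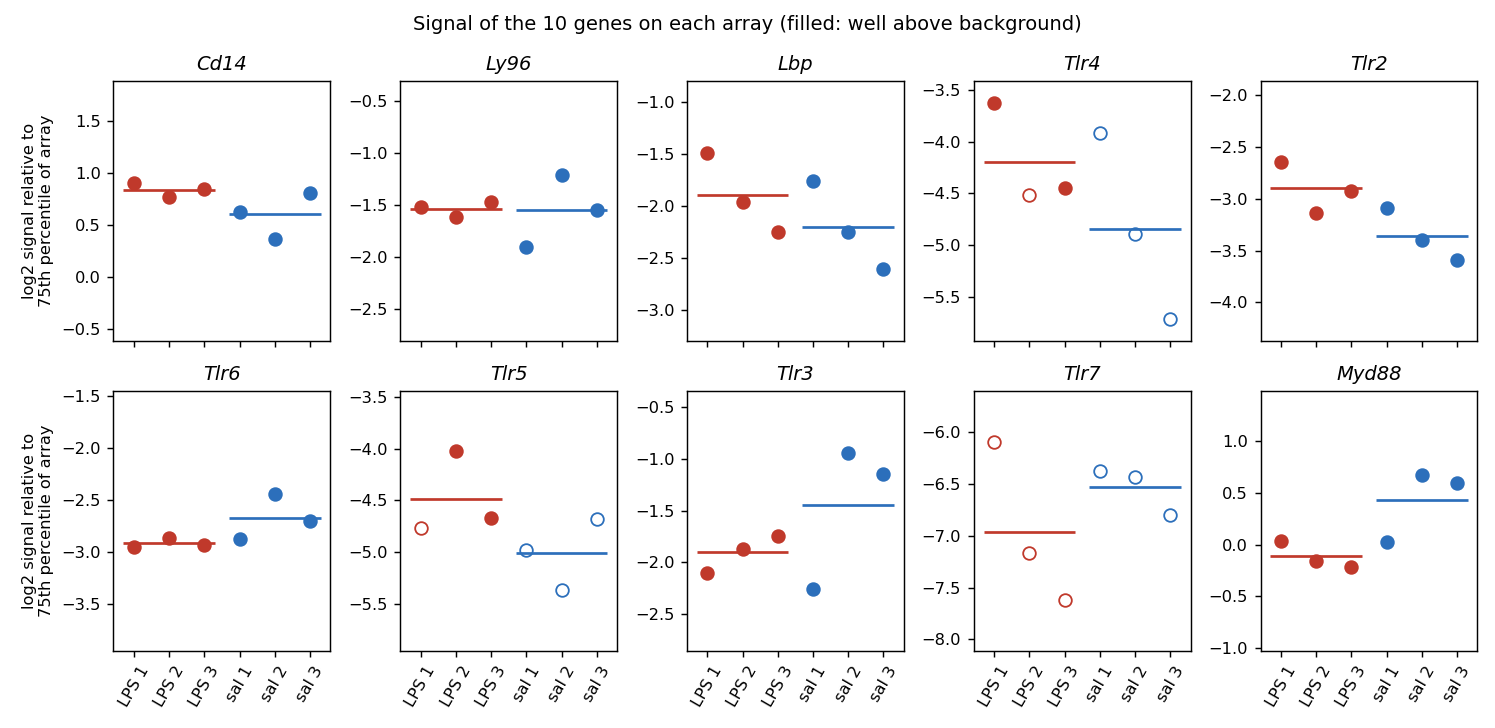
Log2 signal of the brightest probe of each gene on each array (y axis, relative to the 75th percentile of the array; every panel spans 2.5 log2 units), with LPS arrays in red, saline arrays in blue and lines at the group means. Filled points are well above background, and the groups overlap in all 10 panels.

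2 of the saline arrays differed from the other 4 in transcripts of other organs. Tlr3, Tlr6 and Myd88 were also highest on those 2 arrays, and the other receptor genes were not. Any link to those transcripts was not tested. The summed signal of 9 adrenal gland markers was 3.00 to 5.91 times the 75th percentile on the LPS arrays, 6.07 on saline replicate 1, and 192 and 222 on saline replicates 2 and 3. That of 6 liver markers was 0.391 to 0.658 on the LPS arrays, 0.607 on saline replicate 1, 12.7 on saline replicate 2 and 1.71 on saline replicate 3. The adrenal markers Chga, Chgb, Cyp11b1 and Mc2r and the liver markers Alb, Ttr and Fgb were well above background on saline replicates 2 and 3 and on 0 of the other 4 arrays. The 6 epithelial markers summed to 56.2 on LPS replicate 1 and 55.0 on saline replicate 1, and to between 21.7 and 34.9 on the other 4 arrays. All 9 oocyte markers and 5 of 6 granulosa cell markers were well above background on every array, so the label ovary was borne out by its defining markers. Each result below that rests on the 2 saline arrays is given with and without them, a choice made after their values had been seen. In that fit the lone saline replicate 1 is assumed to vary like the LPS arrays.

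Of the proteins that bind LPS before Tlr4, none differed beyond the spread between arrays. Cd14, the co-receptor on macrophages, had 0.90, 0.77 and 0.84 on LPS replicates 1, 2 and 3 and 0.62, 0.37 and 0.81 on saline replicates 1, 2 and 3. The LPS values lay close together (SD 0.07, n = 3) and the saline values were wider (SD 0.22, n = 3), with saline replicate 3 inside the LPS range. The log2 difference was 0.24 (SE 0.18; 95% interval -0.19 to 0.67), with a limma adjusted p of 0.654. It was positive under each of the 20 alternatives, from 0.12 to 0.61, and was 0.22 without saline replicates 2 and 3.

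Lbp, the carrier of LPS in plasma that is made mainly in the liver, gave -1.49, -1.96 and -2.25 in LPS replicates 1, 2 and 3 and -1.76, -2.25 and -2.61 in saline replicates 1, 2 and 3. Replicate 1 was the highest array of both groups, and the ranges overlapped over most of their length. The log2 difference was 0.31 (SE 0.30; 95% interval -0.40 to 1.01), with a limma adjusted p of 0.772. LPS was higher within each replicate number, by 0.27, 0.29 and 0.36, but the sources do not say that equal numbers are pairs. Without saline replicates 2 and 3 the difference was -0.14 (limma unadjusted p = 0.723). The liver markers listed above were highest on saline replicate 2, where Lbp lay between the other saline arrays.

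Ly96, the partner of Tlr4 that holds LPS, was measured by 2 probes of 1 spot each. The brighter probe gave -1.52, -1.61 and -1.47 in LPS replicates 1, 2 and 3 and -1.91, -1.21 and -1.55 in saline replicates 1, 2 and 3, so that all LPS values lay inside the saline range. Its log2 difference was 0.02 (95% interval -0.50 to 0.54), with a limma adjusted p of 0.995, and was 0.37 (limma unadjusted p = 0.196) without saline replicates 2 and 3. The other probe gave -0.02 (95% interval -0.73 to 0.70). The intervals of both probes lay within a 2-fold change in either direction.

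Tlr4, the receptor of LPS, was close to background. It gave -3.63, -4.52 and -4.45 in LPS replicates 1, 2 and 3 and -3.92, -4.89 and -5.71 in saline replicates 1, 2 and 3. Of its spots, 5 of 6 across the LPS arrays and 1 of 6 on the saline arrays were well above background. Over the spots of all probes the share was also higher on every LPS array (72.45% to 75.98%) than on any saline array (66.31% to 70.4%). The highest saline array lay above 2 of the 3 LPS arrays. Since no saline array had both spots well above background, only a bound can be had, and it was 1.01-fold, LPS over saline, with no test of its own. LPS replicate 2, itself not well above background, entered the bound at its measured value. The bound also takes no account of the spread between arrays, so it shows no minimum increase after LPS. The bound was 1.02 to 1.13 with LPS replicate 2 or 3 or saline replicate 1 or 2 left out, and there was no bound above 1 without LPS replicate 1 or without saline replicate 3. Of the measured values the log2 difference was 0.64 (95% interval -0.51 to 1.79), the widest interval of the 10 genes by their brightest probes. It was 0.21 to 1.101 with any 1 array left out, and -0.28 without saline replicates 2 and 3. Equal replicate numbers were treated as pairs on correlations between the arrays alone, which did not settle numbers 2 and 3. Within replicate numbers 1, 2 and 3 the LPS array was higher by 0.29, 0.38 and 1.26, and with the replicate number as a block the limma unadjusted p was 0.0529 (adjusted p = 0.246), compared with 0.225 without it. These differences of measured values include signal at background and are not folds. Measured values of Tlr4 met the 2-fold criterion without normalization between arrays (1.02, limma unadjusted p = 0.0327). They also met it without saline replicate 1 (1.101, limma unadjusted p = 0.0304). The log2 difference was 0.042 with normexp background correction and -0.0093 without background correction. The paper, whose array normalization is not given in the sources used here, counts TLR4 among the genes upregulated on its arrays. It also reports higher TLR4 transcript by quantitative PCR and higher TLR4 protein by western blot, neither of which was examined here.

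Tlr2, which binds bacterial lipoproteins, gave -2.64, -3.13 and -2.92 in LPS replicates 1, 2 and 3 and -3.09, -3.40 and -3.59 in saline replicates 1, 2 and 3. LPS replicates 1 and 3 lay above all saline arrays, and LPS replicate 2 lay just below saline replicate 1. The log2 difference was 0.46 (SE 0.22; 95% interval -0.05 to 0.97), with an unadjusted p of 0.0719 and an adjusted p of 0.347 in limma. LPS was higher within each replicate number, by 0.45, 0.26 and 0.67. With the replicate number as a block, a pairing that rests on correlations alone, the limma unadjusted p was 0.038 and the adjusted p was 0.22. The direction was positive under all 20 alternatives, from 0.07 without background correction to 0.84 without normalization between arrays, and the smallest adjusted p among them was 0.175. The unadjusted p was 0.0367 without saline replicate 1 and between 0.0665 and 0.207 with any other single array left out. Without saline replicates 2 and 3 the difference was 0.19 (limma unadjusted p = 0.553).

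Tlr6, which pairs with Tlr2 on diacylated lipoproteins, did not move with it. It gave -2.95, -2.87 and -2.93 in LPS replicates 1, 2 and 3 and -2.87, -2.44 and -2.70 in saline replicates 1, 2 and 3. The LPS arrays were nearly equal (SD 0.04, n = 3), and the lowest saline array lay within their range. The log2 difference was -0.24 (SE 0.18; 95% interval -0.67 to 0.18), with a limma adjusted p of 0.634. The highest arrays were saline replicates 2 and 3, and without them the difference was -0.043 (limma unadjusted p = 0.867). The difference between the changes of Tlr2 and Tlr6 was not tested.

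Tlr5, the receptor of bacterial flagellin, was another dim probe. It gave -4.77, -4.03 and -4.66 in LPS replicates 1, 2 and 3 and -4.97, -5.36 and -4.68 in saline replicates 1, 2 and 3. LPS replicate 2 stood above the other 5 arrays. Of its spots 5 of 6 across the LPS arrays and 0 of 6 on the saline arrays were well above background. As given for Tlr4, the spots of all probes were also called so more often on the LPS arrays. The bound on the fold was under 1, so no fold is given. The limma adjusted p of 0.431 belongs to the measured values, which include signal at background.

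The receptors inside the endosome were Tlr3, which senses double-stranded RNA, and Tlr7, which senses single-stranded RNA. The brighter probe of Tlr3 gave -2.10, -1.87 and -1.74 in LPS replicates 1, 2 and 3 and -2.25, -0.94 and -1.15 in saline replicates 1, 2 and 3. Saline replicate 1 was the lowest array and saline replicates 2 and 3 were the highest, with all LPS arrays between. The log2 difference was -0.45 (SE 0.36; 95% interval -1.31 to 0.40), with a limma adjusted p of 0.676, and the other probe gave -0.54 (SE 0.46, adjusted p = 0.717). Without saline replicates 2 and 3, the arrays with adrenal and liver transcripts, the brighter probe gave 0.35. Without saline replicate 1 it gave -0.86 (unadjusted p = 0.00584, adjusted p = 0.191, limma). The Tlr7 probe was well above background on 0 of 6 arrays, and no fold is given for it.

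Myd88, the adaptor that links the receptors to their kinases, had the lowest p-value of the 10 genes. It gave 0.04, -0.16 and -0.21 in LPS replicates 1, 2 and 3 and 0.03, 0.67 and 0.59 in saline replicates 1, 2 and 3. Saline replicates 2 and 3 were higher than the rest, while saline replicate 1 lay within the LPS range, just below LPS replicate 1. The log2 difference was -0.54 (SE 0.22; 95% interval -1.08 to -0.01), with an unadjusted p of 0.0475 and an adjusted p of 0.298 in limma. An exact permutation test over the 6 arrays (two-sided) gave p = 0.2, where 3 arrays against 3 cannot go below 0.1. Within replicate number 1 the difference was 0.01, and within numbers 2 and 3 it was -0.84 and -0.81. With the replicate number as a block the unadjusted p was 0.0703. Leaving out saline replicate 2 or 3 or any LPS replicate gave unadjusted p-values between 0.0503 and 0.145, and leaving out saline replicate 1 gave a difference of -0.75 with an unadjusted p of 0.0070. Without both saline replicates 2 and 3 the difference was -0.14 (limma unadjusted p = 0.617). The part of the adrenal and liver transcripts on these 2 arrays in the values of Myd88 and Tlr3 was not tested.

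**Figure D2:**
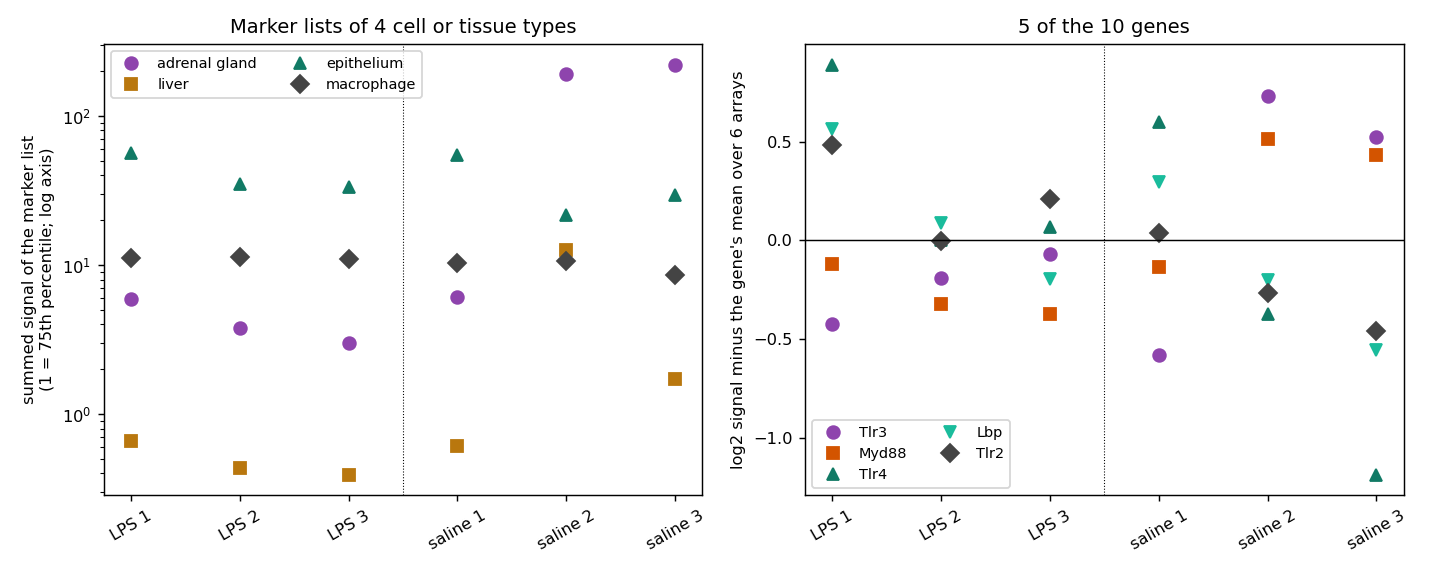
Left, summed signal of the marker lists of adrenal gland (9 genes), liver (6), epithelium (6) and macrophage (12) on each array, on a log axis where 1 is the 75th percentile. Right, log2 signal of 5 genes minus their own mean over the 6 arrays: Tlr3 and Myd88 are highest on saline replicates 2 and 3, where the adrenal markers are at 192 and 222, and Tlr4, Lbp and Tlr2 are highest on LPS replicate 1 and, among the saline arrays, on saline replicate 1.

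Tlr2, Tlr4 and Lbp were each highest on replicate 1 within both groups, the 2 arrays on which the epithelial markers were also highest. The part of that tissue difference in their values was not tested. The direction of the measured values of Tlr3, Tlr4 and Lbp turned when saline replicates 2 and 3 were left out, while that of Tlr2, Cd14 and Myd88 did not. LPS replicates 2 and 3 lay in the other row of the slide from the remaining 4 arrays, so that with the slide row as a block the difference is that of LPS replicate 1 from the saline arrays. It was 1.21 for the measured values of Tlr4, 0.72 for Tlr2 (limma unadjusted p = 0.0453), 0.72 for Lbp and -0.39 for Myd88 (limma unadjusted p = 0.268), and the smallest adjusted p of the 10 genes was 0.583.

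**Figure D3:**
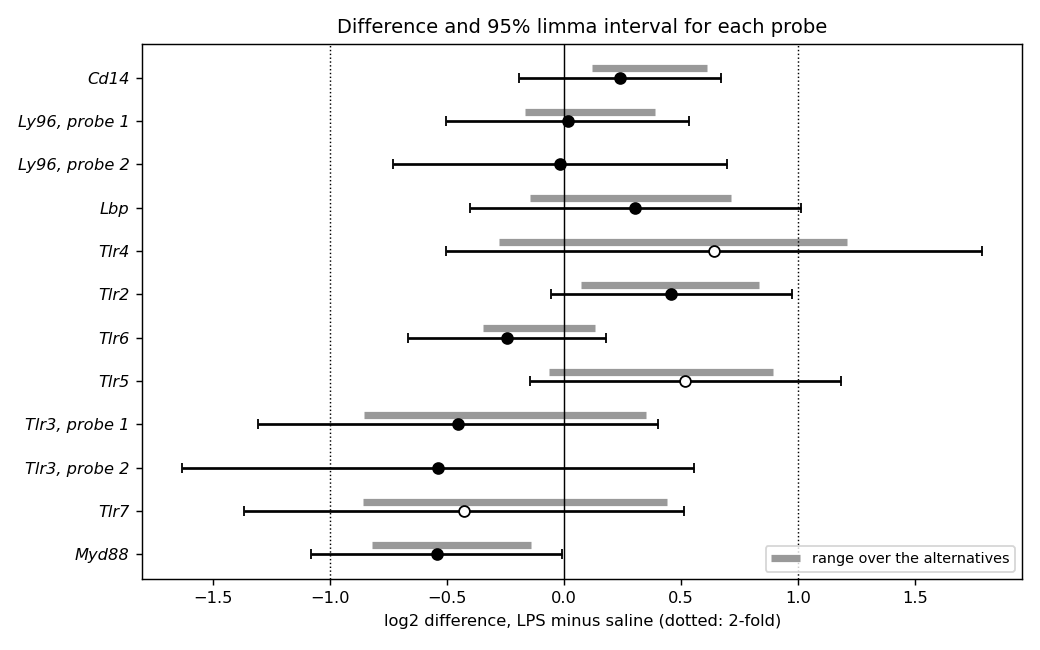
Log2 difference of LPS minus saline for all 12 probes (points) with 95% limma intervals (black), and the range over the alternatives for the brightest probe of each gene (grey). Open points are genes with 0 of 3 saline arrays well above background (Tlr4, Tlr5) or 0 of 6 arrays (Tlr7), and only the interval of Myd88 excludes 0.

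Immune cells, of which macrophages are known to carry these receptors, were looked at through their markers. Of 12 macrophage genes, 9 were higher on average after LPS, with a median log2 difference of 0.26, and 3 had an unadjusted p under 0.05, all higher, against 2.46% of all probes, with none at an adjusted p under 0.05. Over all probes 44.8% were higher, and among those well above background on every array 53.6% were. Other lists leaned the same way, with 9 of 9 oocyte markers higher (median 0.43) and 5 of 6 epithelial markers (median 0.35), none at an unadjusted p under 0.05. Csf1r, the receptor of the macrophage growth factor, was higher by 0.52 and the macrophage surface protein Adgre1 by 0.81. Mrc1 was well above background on 3 of 3 LPS and 0 of 3 saline arrays, with a bound of 2.085-fold, LPS over saline. The bound takes no account of the spread between arrays. By measured values Mrc1 was the 1 gene of the 12 that met the 2-fold criterion (limma unadjusted p = 0.022, adjusted p = 0.2715), which 1.69% of all probes met. The summed level of the list was 11.1 to 11.3 across the LPS arrays and 8.53 to 10.6 on the saline arrays. Cd68 (-0.16), Cd163 (-0.16) and C1qa (-0.07) were not higher. In whole ovaries a change in the number of macrophages and a change in the RNA per cell cannot be told apart, and the part of the macrophages in the values of Tlr2 and Cd14 was not tested. Of 7 neutrophil genes 4 (Elane, Ngp, Cxcr2 and Csf3r) were well above background on 0 of 6 arrays, and the list summed to 0.401 to 0.457 across the LPS arrays and 0.308 to 0.717 on the saline arrays. Of 4 lymphocyte genes Cd3e was well above background on 0 of 6 arrays, and the list summed to 0.920 to 1.27 and 0.935 to 1.34.

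Other genes of the pathway were followed by lists set by role. Of 44 listed genes 35 had a probe, and Tlr1, Tlr13, Unc93b1, Tirap, Ticam1, Traf3, Tab2, Tab3 and Tnfaip3 were not analysed here because no probe was matched. None of the 35 met the 2-fold criterion (1.69% of all probes), and the adjusted p of limma was under 0.05 for 0 of them (0.0% of all probes). By direction 19 were higher and 16 were lower after LPS, with a median log2 difference of 0.02. Of the 35 genes 10 were well above background on no array, and their signal gives no direction of change. The counts by role below include such genes. Of the 21 genes well above background on all 6 arrays 13 were higher. At an unadjusted p under 0.05 there were 0 higher and 2 lower, Tlr9, a sensor of unmethylated DNA, and Tlr10, against 14.1% of all probes that were lower at that p. Both were well above background on 0 of 6 arrays, so no fold is given. For 3 of the 35 (Tlr9, Tlr10 and Tbk1) the groups stood apart, against 23.4% of all probes.

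Among the 5 other Toll-like receptors with a probe, 0 were well above background on every array and 3, Tlr8, Tlr9 and Tlr10, on none. Of 8 receptor partners, chaperones and LPS-binding or LPS-degrading proteins, 4 were higher and 4 were lower. Hsp90b1 (gp96) and Cnpy3, the chaperones that fold Toll-like receptors, differed by -0.21 (SE 0.19, adjusted p = 0.736) and -0.20 (SE 0.16, adjusted p = 0.703). Scarb1, a lipoprotein receptor that also binds LPS and is abundant in steroid-making cells, was chosen for mention after its values were seen. It gave -0.20, 1.07 and 1.04 in LPS replicates 1, 2 and 3 and -0.15, 3.58 and 3.94 in saline replicates 1, 2 and 3, so that the 2 saline arrays with the adrenal transcripts were also the highest for it. Its log2 difference was -1.82 (SE 1.07), with a limma adjusted p of 0.499. With the replicate number as a block, a pairing that rests on correlations alone, Scarb1 met the 2-fold criterion (limma unadjusted p = 0.0341, adjusted p = 0.213). Without saline replicates 2 and 3 its direction turned, to 0.78 (limma unadjusted p = 0.26). Without saline replicate 1 the difference was -3.12 (limma adjusted p = 0.0506). Without both arrays of replicate number 1, a fit added after the data had been seen, it was -2.70 (limma adjusted p = 0.0059). In that fit 411 of 30365 probes had an adjusted p under 0.05, and saline replicates 2 and 3 were its only saline arrays.

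Of 3 adaptors with a probe 1 was higher and 2 were lower, and Ticam2 was well above background on 0 of 6 arrays. Among the 12 kinases and ubiquitin ligases, which relay the signal from Myd88, 9 were higher and 3 were lower, with a median log2 difference of 0.11. Ube2n and Ube2v1, the pair that builds the ubiquitin chains on Traf6, differed by -0.04 (SE 0.19) and 0.02 (SE 0.16). Tbk1, the kinase on the Ticam1 branch, was named after its values were seen because its groups stood apart. It was higher by 0.30 (SE 0.20, limma unadjusted p = 0.178) with all LPS arrays above all saline arrays. Of 7 inhibitors 4 were higher and 3 were lower, between -0.21 and 0.16. Tollip, which restrains the Irak kinases, differed by 0.06 (SE 0.26, adjusted p = 0.984).

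**Figure D4:**
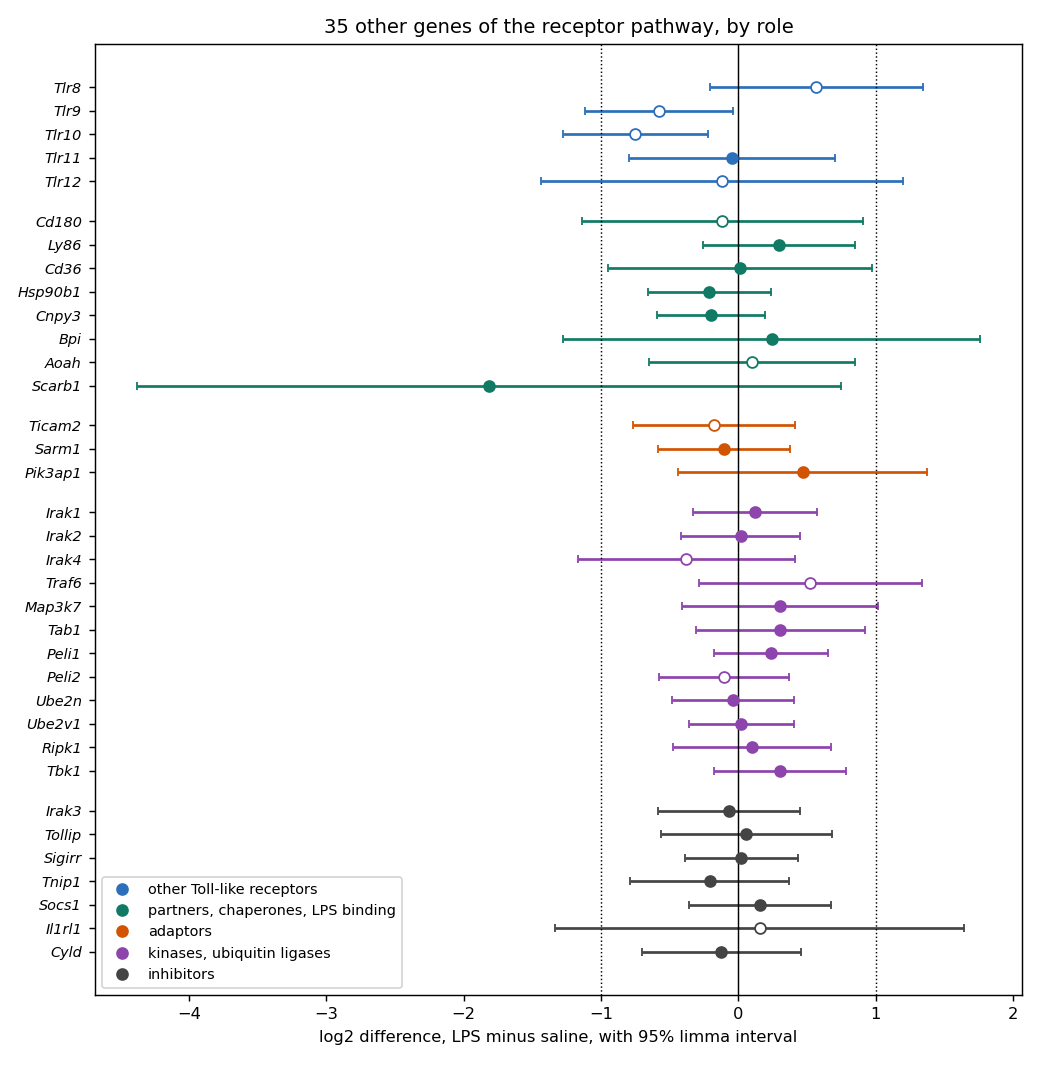
Log2 difference of LPS minus saline for the brightest probe of 35 other genes of the pathway, coloured by role, with 95% limma intervals and dotted lines at 2-fold. Open points are genes for which at least 1 group had 0 of 3 arrays well above background. Most intervals include 0, and those of Tlr9 and Tlr10, which do not, belong to probes well above background on no array.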

How the data were processed

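The authors deposited the spot intensity of 6 single-colour arrays, extracted with Feature Extraction 10.5.1.1, which had subtracted the background and replaced dim spots by a surrogate value, and a value table of the same intensity values within 0.497%. The paper names analysis of variance for its data in general. The normalization of the arrays is not given in the sources used here. The 6 arrays shared 1 slide and 1 scan. LPS replicates 2 and 3 lay in slide row 1 and the other 4 arrays in row 2. The 75th percentile of the processed signal was 2824 to 6754, spots well above background made up 66.3% to 76.0%, and the mean net signal of the negative controls was 521 to 1025. Array signal and the number of arrays limit the precision.

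Here, spots flagged as outliers were dropped, log2 intensities of a probe were averaged and the 75th percentile of the array was subtracted. limma 3.58.1 (R 4.3.3) compared the groups over 30367 probes with Benjamini-Hochberg adjustment, after it had been tested on simulated data. Groups and replicate numbers were taken from the labels. Symbols for 17998 probes came from RefSeq accessions (GRCr8, names only), since the files' gene name column was empty. The brightest probe stood for a gene. Where a group had no array well above background, the fold is a bound, taken from the higher of each dim array's own value and its lowest signal well above background. All arrays of the other group entered at their measured values. The genes named were the 10 receptor genes, the pathway genes at an unadjusted p under 0.05 and the 5 brightest of the pathway. Scarb1 and Tbk1 were added after their values were seen. The genes and lists were chosen with earlier results of these data known. Arrays of the same replicate number deviated together from their group means (correlations over all probes of 0.298, 0.215 and 0.254). LPS replicate 2 correlated less with saline replicate 3 (0.16), and LPS replicate 3 less with saline replicate 2 (0.0678). Over a subset of probes LPS replicate 2 correlated more with saline replicate 3 (0.405) than with saline replicate 2 (0.25). LPS replicate 3 was near equal there (0.317 with saline replicate 2, 0.322 with saline replicate 3). Number 1 was thus set apart, but the pairing of numbers 2 and 3 was not settled. The numbers were treated as pairs on these correlations alone. The alternatives, 20 in all, covered background, normalization, dim and flagged spots, a one-way analysis of variance of each probe in place of limma, the probe of a gene, the replicate number, the slide row and arrays left out. The fits without saline replicates 2 and 3 and without both arrays of replicate number 1 were added after the data had been seen.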

Additional observations from a re-analysis of the deposited data

How the results depend on the processing

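Under the 20 alternatives, no receptor gene passed at an adjusted p under 0.05. The number of receptor genes past the 2-fold criterion was 0 except for 1, Tlr4 by its measured values, without normalization between arrays, where the median of all probes moved to 0.34, and from 0 to 1 with 1 array left out (Tlr4 without saline replicate 1, where its bound was 1.12-fold). The number of pathway genes past it was 1 without background correction, 1 with the replicate block and 1 with both arrays of replicate number 1 left out (Scarb1 in each), 1 with the slide row as a block (Il1rl1, well above background on 0 of 6 arrays), and 0 to 1 with 1 array left out. The slide row fit compares only LPS replicate 1 with the saline arrays, which share its row. The direction of the fitted values turned as follows, and the cause was not tested. For Tlr4, Tlr5 and Tlr7 these values include signal at background and give no direction of change. With saline replicates 2 and 3 left out, Tlr3 was 0.35, Tlr4 -0.28 and Lbp -0.14. Without background correction Tlr4 was -0.0093, Tlr5 -0.061 and Ly96 -0.073, and with normexp Tlr5 was -0.049 and Ly96 -0.072. Tlr6 was 0.13 without normalization between arrays and Tlr7 was 0.44 with the slide row as a block. Ly96 was -0.021 under quantile normalization, -0.17 with both arrays of replicate number 1 left out, -5.0e-05 as the mean of its probes, and -0.16 to 0.19 with 1 array left out. For Myd88, with an unadjusted p of 0.0475, the p was under 0.05 in 9 of 20 alternatives, and it was 0.0578 when the 75th percentile was taken over probes well above background and 0.0671 in a one-way analysis of variance of each probe, the kind of test that the paper names in general, with a difference of -0.54. The replicate block moved Tlr2 to an unadjusted p of 0.038 and Myd88 to 0.0703, and it changed no other call among the 10 genes. It treats equal numbers as pairs, which the correlations between arrays did not settle for numbers 2 and 3.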

Other observations

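The alarmins S100a8 and S100a9, proteins of myeloid cells that are known as ligands of Tlr4 made by the body itself, were on the neutrophil list. S100a9 gave -2.14, -1.85 and -1.94 on LPS replicates 1, 2 and 3 and -2.61, -1.27 and -2.19 on saline replicates 1, 2 and 3, a log2 difference of 0.04 (SE 0.35), and S100a8 differed by 0.09 (SE 0.66). Both were highest on saline replicate 2. Bpi, which binds and neutralises LPS, was highest on LPS replicate 1 (-2.39) and saline replicate 1 (-2.42) and lay between -4.61 and -3.74 on the other 4 arrays.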
